A study of Rattus norvegicus with 18 samples.

Results

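The genes described here are those that neurobiologists use to tell the layers of the cerebral cortex apart: *Cux1*, *Cux2*, *Rorb* and *Rasgrf2* for the upper layers, and *Bcl11b*, *Fezf2*, *Tbr1*, *Foxp2* and *Tle4* for the deep layers. A row was taken where the symbol written behind its gene identifier was on this list of 9 symbols. Of these, 8 symbols were matched by 9 identifiers among the 32623 genes listed per pup, since *Cux1* was carried by 2 identifiers, and *Rasgrf2* was not analysed here. All 9 identifiers had enough counts to enter the test. *Tle4* encodes a co-repressor and *Rasgrf2* a guanine nucleotide exchange factor, so that the set called layer identity transcription factors holds proteins of other kinds too.

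RNA from the prefrontal cortex (PFC) of 18 Sprague Dawley rat pups was sequenced at postnatal day 14 (P14), with 6 pups in each of 3 groups defined by what their dams received. Oxycodone (oxy), an opioid pain medication, was given to the dams by oral gavage. SAL dams received saline. PNO (postnatal oxy) dams received 15 mg/kg/day from parturition until weaning, and their pups met the drug through breastmilk. IUO (in utero oxy) dams started at 10 mg/kg/day for 5 days, were raised by 0.5 mg/kg/day over 10 days to 15 mg/kg/day, were then mated, and stayed on the drug until weaning. Their pups were thus exposed before and after birth. The labels give neither the sex of a pup nor its dam or litter, so that the p-values measure only the spread between these 18 pups.

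Neurons of the cortex are born in sequence, the deep layers first and the upper layers last, and each layer sends its axons to its own targets. A small set of transcription factors, several of which repress each other, fixes this choice. *Fezf2* and *Bcl11b* direct layer 5 neurons to project below the cortex, *Tbr1*, *Foxp2* and *Tle4* belong to the layer 6 neurons that project to the thalamus, *Rorb* marks layer 4, and *Cux1* and *Cux2* mark layers 2 to 4 and shape their dendrites and synapses. Several of these genes also work outside the cortex: *Bcl11b* and *Foxp2* are strongly expressed in the medium spiny neurons of the striatum, which lies beneath the frontal cortex.

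Promoters of 3 of these genes are shown because *Cux2*, *Rorb* and *Tbr1* varied together from pup to pup in the data given further on. A row of *Cux1* varied with them too, and the *Cux1* promoters are described below without their sequence. The sequences are those RefSeq gives on the GRCr8 build, from 250 bases before to 50 bases after the annotated start, written 5′ to 3′ on the strand of the gene. RefSeq's table held a promoter for 6 of the 8 symbols, and *Bcl11b* and *Foxp2* had no entry. The *Cux2* promoter lies at chr12:40179032-40179331 on the plus strand, that of *Rorb* at chr1:225970924-225971223 on the minus strand and that of *Tbr1* at chr3:66759553-66759852 on the plus strand. Capitals mark matches to the letters of 5 motifs searched on both strands: ATCGAT (Cux proteins), AGGTCA (Ror), GGTGTGA (T-box proteins such as Tbr1), TAAACA (forkhead proteins such as Foxp2) and GGGCGG (Sp proteins).
Cux2: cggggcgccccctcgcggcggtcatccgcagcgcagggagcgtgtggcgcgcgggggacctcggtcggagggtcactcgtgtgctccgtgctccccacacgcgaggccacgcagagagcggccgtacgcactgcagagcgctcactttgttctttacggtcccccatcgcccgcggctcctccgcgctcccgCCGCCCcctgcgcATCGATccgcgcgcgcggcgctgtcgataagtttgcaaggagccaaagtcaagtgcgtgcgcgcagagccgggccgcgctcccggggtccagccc
Rorb: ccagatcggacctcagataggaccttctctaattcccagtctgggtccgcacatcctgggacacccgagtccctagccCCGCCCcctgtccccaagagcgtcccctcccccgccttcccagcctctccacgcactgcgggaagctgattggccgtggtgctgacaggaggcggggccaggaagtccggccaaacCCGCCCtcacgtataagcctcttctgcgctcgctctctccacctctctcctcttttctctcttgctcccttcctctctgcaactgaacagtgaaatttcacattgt
Tbr1: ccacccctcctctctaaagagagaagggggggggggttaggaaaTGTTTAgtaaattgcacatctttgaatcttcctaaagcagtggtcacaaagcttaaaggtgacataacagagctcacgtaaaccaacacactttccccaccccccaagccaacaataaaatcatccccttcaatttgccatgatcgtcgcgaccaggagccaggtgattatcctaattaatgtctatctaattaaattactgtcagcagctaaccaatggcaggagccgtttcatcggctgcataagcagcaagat
The *Cux2* promoter held the Cux letters at bases 206 to 211 and the Sp letters at bases 193 to 198. Among all 33469 rat promoters of 300 bases, 0.896% held the Cux letters and 33.1% the Sp letters. The *Rorb* promoter held the Sp letters at bases 79 to 84 and 195 to 200, and the *Tbr1* promoter the forkhead letters at bases 45 to 50, which 13.7% of all promoters held. AGGTCA (16.2% of all promoters) and GGTGTGA (3.83%) were in none of the 3 windows, and no match overlapped another. The 3 promoters also differed in composition: GC content was 73.0% with 46 CpG in *Cux2*, 60.7% with 15 CpG in *Rorb* and 45.3% with 6 CpG in *Tbr1*, against medians of 51.7% and 7 CpG over all promoters. They thus share none of the 5 motifs across all 3 windows. The *Cux1* promoters in RefSeq's table, whose windows overlap, held the Sp letters at bases 236 to 241 and 208 to 213 of their windows.

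Depth, as summed expected counts, was 18381819 to 26084780 in the 18 pups (median 22726306). Genes of cortical excitatory neurons were present in every pup, and *Slc17a7*, their vesicular glutamate transporter, ranged from 844.9 to 2049 TMM-normalized CPM (CPM, which puts the libraries on 1 size by edgeR's TMM method). Markers of the striatum were present as well, and differed more between pups: the sum of 10 of 10 markers ran from 201.9 to 1665 CPM in SAL, from 256.4 to 1419 in PNO and from 446.4 to 2030 in IUO. The sum of 7 myelin genes ran from 1721 to 9285 CPM in SAL, from 2917 to 14740 in PNO and from 2204 to 5619 in IUO. The 5 pups with the highest striatal marker scores (the mean log2 CPM of those 10 markers), above 6.5, were SAL 1, SAL 3, PNO 3, IUO 1 and IUO 2, and the fold changes of *Bcl11b* and *Foxp2* below are given with and without them.

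Levels of different genes were compared in TPM, which is scaled to transcript length. In SAL the highest level was that of the shorter *Cux1* row, ENSRNOG00000059116, at 66.9 ± 9.47 TPM (SD, n = 6). It was followed by *Tle4* at 38.9 ± 5.71, *Fezf2* at 28.1 ± 10.3, *Bcl11b* at 25.9 ± 14.3 and *Cux2* at 21.6 ± 9.33 TPM. *Tbr1* stood at 18.3 ± 7.62, the longer *Cux1* row ENSRNOG00000001424 at 16.4 ± 7.39, *Foxp2* at 6.44 ± 2.47 and *Rorb* at 4.18 ± 3.02 TPM. In this order *Fezf2* and *Bcl11b*, *Bcl11b* and *Cux2*, *Tbr1* and the longer *Cux1* row, and *Foxp2* and *Rorb* did not differ beyond the SD of their difference within pups. The order was close to this in the exposed groups, where the shorter *Cux1* row, *Tle4* and *Rorb* kept the first, second and last rank. *Bcl11b* stood at rank 3 in IUO with 36.9 ± 9.94 TPM and at rank 5 in PNO with 17.6 ± 6.5 TPM, although neither value was separated from its next lower neighbour by more than the SD of the difference.

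For each upper-layer gene the 3 groups lay over each other. The longer *Cux1* row (4512 bases in length), which encodes a homeodomain protein with cut repeats, had a level of 23.8 to 69.6 CPM in SAL with a median of 42.5, of 27.6 to 53.1 with a median of 36.01 in PNO, and of 38.3 to 59.6 with a median of 43.7 in IUO. The SAL pups enclosed both other groups, and the lowest and the highest of the 18 pups were SAL 4 and SAL 6. The shorter *Cux1* row (579 bases) spread far less, from 18.6 to 22.6 CPM in SAL, 14.4 to 25.1 in PNO and 18.4 to 22.4 in IUO. Whether this row holds part of the same transcripts as the longer one is not given in the sources used here, and the 2 rows were not summed.

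*Cux2*, the homeodomain partner of *Cux1* in the upper layers, ranged from 41.5 to 100.4 CPM in SAL (median 64.3), from 48.4 to 89.9 in PNO (median 52.0) and from 35.6 to 117.1 in IUO (median 68.6). IUO thus held both the lowest pup (IUO 2) and the highest (IUO 5). *Rorb*, an orphan nuclear receptor that groups layer 4 neurons into barrels in sensory cortex, was the least abundant member at 2.98 to 11.8 CPM in SAL (median 4.35), 3.005 to 7.83 in PNO (median 4.40) and 2.12 to 8.87 in IUO (median 4.60). Behind its lowest value stood 43 counts and behind its highest 287 counts, so that *Rorb* carries more counting error than the other members. The 3 groups lay over each other, with SAL 6 the highest of all pups.

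**Figure D1:**
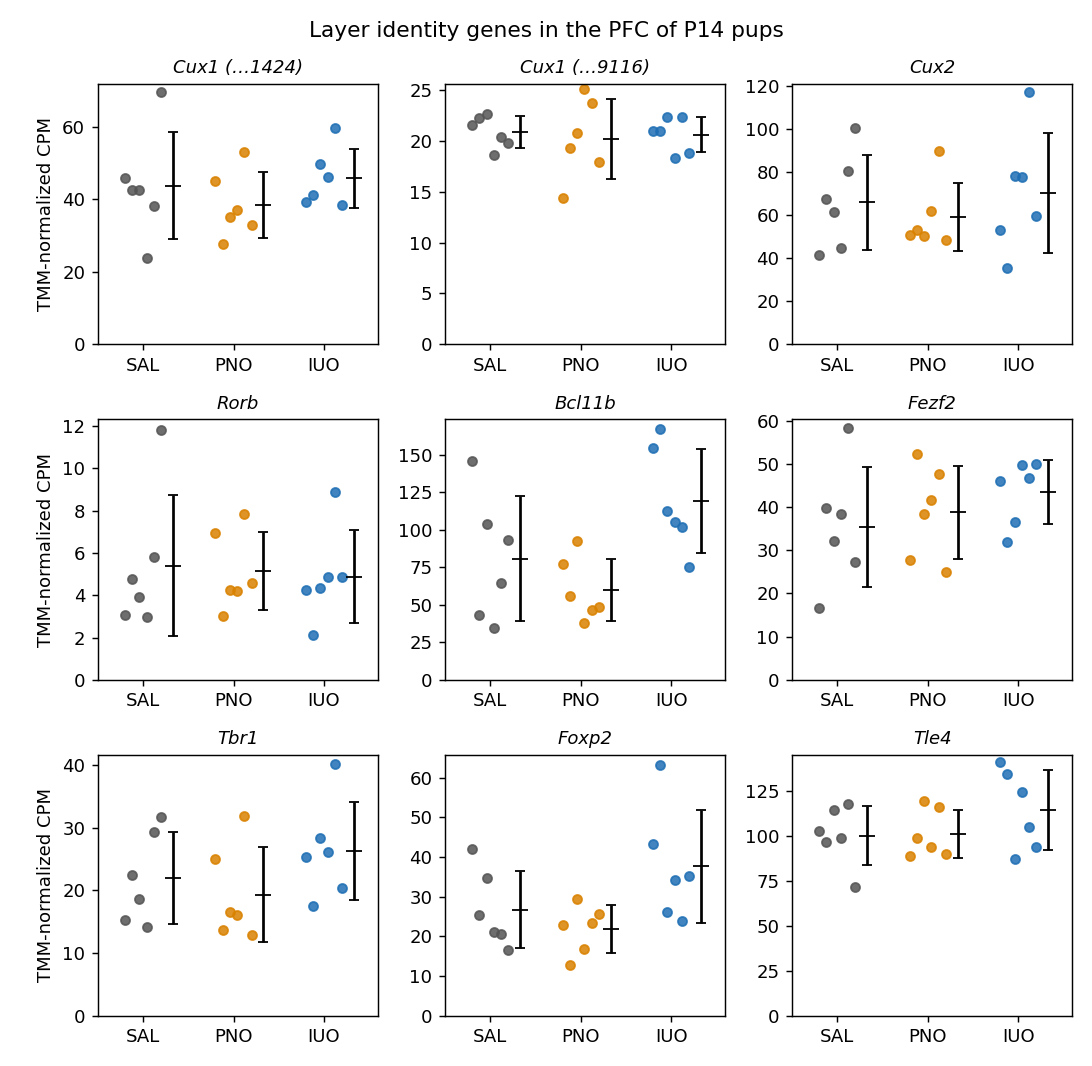
TMM-normalized CPM (vertical axes, linear and starting at 0) of the 9 layer gene identifiers in each pup of SAL, PNO and IUO (points, n = 6 per group), with the group mean and SD beside them. IUO pups lie toward the top for *Bcl11b* and *Foxp2* (medians 108.7 and 34.7 CPM), while the groups overlap in all 9 panels.

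Each of the 5 deep-layer genes had its highest median in IUO, as *Cux2*, *Rorb* and the longer *Cux1* row did. *Bcl11b*, a zinc finger protein needed for the corticospinal axons of layer 5, had a level of 34.3 to 145.5 CPM in SAL (median 79.1), of 38.0 to 92.2 in PNO (median 52.3) and of 75.4 to 166.8 in IUO (median 108.7). Of the 6 IUO pups, 5 lay above the highest PNO pup, and 4 of the 6 PNO pups lay below the lowest IUO pup. SAL spanned nearly the whole range, with SAL 1 at 145.5 and SAL 4 at 34.3 CPM. *Fezf2*, the zinc finger protein that stands above *Bcl11b* in the choice of the subcortical fate, ranged from 16.7 to 58.2 CPM in SAL (median 35.2), from 24.9 to 52.3 in PNO (median 40.1) and from 31.9 to 50.1 in IUO (median 46.3). IUO had the narrowest spread for *Fezf2*, and all 6 of its pups lay within the range of SAL.

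*Tbr1*, the T-box factor of layer 6, had a level of 14.1 to 31.8 CPM in SAL (median 20.5), of 12.8 to 32.0 in PNO (median 16.3) and of 17.6 to 40.2 in IUO (median 25.7). In PNO 4 pups lay below every IUO pup, and the other 2 lay within the range of IUO. *Foxp2*, a forkhead factor known from speech disorders, ranged from 16.4 to 41.9 CPM in SAL (median 23.3), from 12.9 to 29.4 in PNO (median 23.1) and from 23.9 to 63.1 in IUO (median 34.7). The medians of SAL and PNO were nearly the same, while 4 IUO pups lay above the highest PNO pup and all 6 lay above the medians of SAL and of PNO. *Tle4*, a Groucho co-repressor that marks corticothalamic neurons, ranged from 71.4 to 117.5 CPM in SAL (median 100.6), from 88.6 to 119.5 in PNO (median 96.0) and from 87.0 to 141.3 in IUO (median 114.7). The groups shared most of their range, and 3 IUO pups lay above every SAL pup.

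The first comparison asks whether exposure through breastmilk alone went with a different level of these genes. No layer identity gene passed between PNO and SAL, and neither did any other gene: 0 of 9 identifiers had an adjusted p-value under 0.05 in edgeR's quasi-likelihood test, where 0% of the 15703 genes tested had one. At an unadjusted p-value under 0.05 it was again 0 of 9, with 4.5% of all genes (1.89% higher and 2.6% lower in PNO). At the adjusted threshold DESeq2 called 1 of all genes and 0 of the 9, and limma-voom 0 of both. The log2 fold changes of the 4 upper-layer identifiers were all below 0, between -0.19 and -0.05 with a median of -0.12, and 50.8% of all genes were above 0. The 5 deep-layer genes lay between -0.44 (*Bcl11b*, standard error 0.31) and 0.13 (*Fezf2*, standard error 0.24), with a median of -0.18. The value of *Bcl11b* was -0.19 without SAL 1, -0.15 without the 5 pups of high striatal score and -0.012 with the striatal and myelin scores as covariates, and leaving out each pup in turn it reached -0.60 (without PNO 3). That of *Foxp2*, -0.29 (standard error 0.26) in all pups, was -0.12 without SAL 1, -0.043 without those 5 pups and -0.49 with the myelin score. Leaving out the 5 pups and using both scores were chosen after the data were seen. In the bulk RNA of a tissue piece, fewer cells of a type and less RNA per cell cannot be told apart, here and in all comparisons below.

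The second comparison sets exposure before and after birth against saline. Between IUO and SAL, 0 of 9 identifiers passed the adjusted threshold (0% of all genes) and 0 of 9 the unadjusted one (6.88% of all genes, 3.02% higher and 3.87% lower in IUO), while DESeq2 and limma-voom called 0 of 9 after adjustment (of all genes DESeq2 called 49, limma-voom 43 with sample quality weights and 0 without). All 5 deep-layer genes had log2 fold changes above 0, with a median of 0.30, where 48% of all genes lay above 0. The values were 0.56 for *Bcl11b* (standard error 0.31, unadjusted p = 0.0854), 0.49 for *Foxp2* (standard error 0.26, unadjusted p = 0.0746), 0.30 for *Fezf2*, 0.26 for *Tbr1* and 0.19 for *Tle4*. The adjusted p-values of edgeR's test lay between 0.783 and 0.963 for these 5 genes. The upper-layer identifiers lay between -0.14 (*Rorb*) and 0.09 (*Cux2*), with a median of 0.02. In the same comparison all 10 striatal markers lay above 0 (median 0.50) and all 7 myelin genes below 0 (median -0.60). *Pvalb*, an interneuron marker, was at -1.55 (unadjusted p = 0.00124 and adjusted p = 0.343 in edgeR's test, adjusted p = 0.0271 with DESeq2). Without the 5 pups of high striatal score, a setting chosen after the data were seen, *Bcl11b* was at 0.74 (unadjusted p = 0.0222) and *Foxp2* at 0.51 (unadjusted p = 0.0366), and both crossed the unadjusted threshold, as did 7.35% of all genes. With the striatal score as a covariate they were 0.25 and 0.23, and with both the striatal and myelin scores *Bcl11b* was at -0.0174 (unadjusted p = 0.921) and *Foxp2* at 0.31 (unadjusted p = 0.174). Leaving out SAL 1 alone also brought the number at the unadjusted threshold from 0 to 2, and leaving out SAL 3, SAL 5, IUO 3 or IUO 5 brought it to 1, where 7.2% of all genes passed without SAL 1 and 5.14% to 7.88% without each of the others.

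The third comparison, between the 2 ways of exposure, held the largest values. *Bcl11b* had a log2 fold change of 1.00 in IUO over PNO (standard error 0.31, unadjusted p = 0.00488), and *Foxp2* was 1.72-fold higher, at 0.78 (standard error 0.26, unadjusted p = 0.00779). With edgeR's quasi-likelihood test the adjusted p-values were 0.155 and 0.176, so that 0 of 9 identifiers passed the adjusted threshold, as did 0.0637% of all genes. At the unadjusted threshold it was 2 of 9, against 15.3% of all genes (6.14% higher in IUO and 9.14% lower), and a share of 2 in 9 is near that background. *Tbr1* had a log2 fold change of 0.44 (standard error 0.26, unadjusted p = 0.101), *Tle4* of 0.18 and *Fezf2* of 0.17. All 5 deep-layer genes thus lay above 0, with a median of 0.44, and 49.9% of all genes did. The longer *Cux1* row and *Cux2* were both at 0.25, the shorter *Cux1* row at 0.03 and *Rorb* at -0.07, with standard errors between 0.11 and 0.35. PNO and IUO overlapped for all 9 identifiers, and 1.66% of all genes had groups that did not overlap (0.108% between PNO and SAL, and 0.745% of genes when IUO is set against SAL). The 3 comparisons share their groups, so that the same PNO pups enter both of the comparisons that involve PNO.

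**Figure D2:**
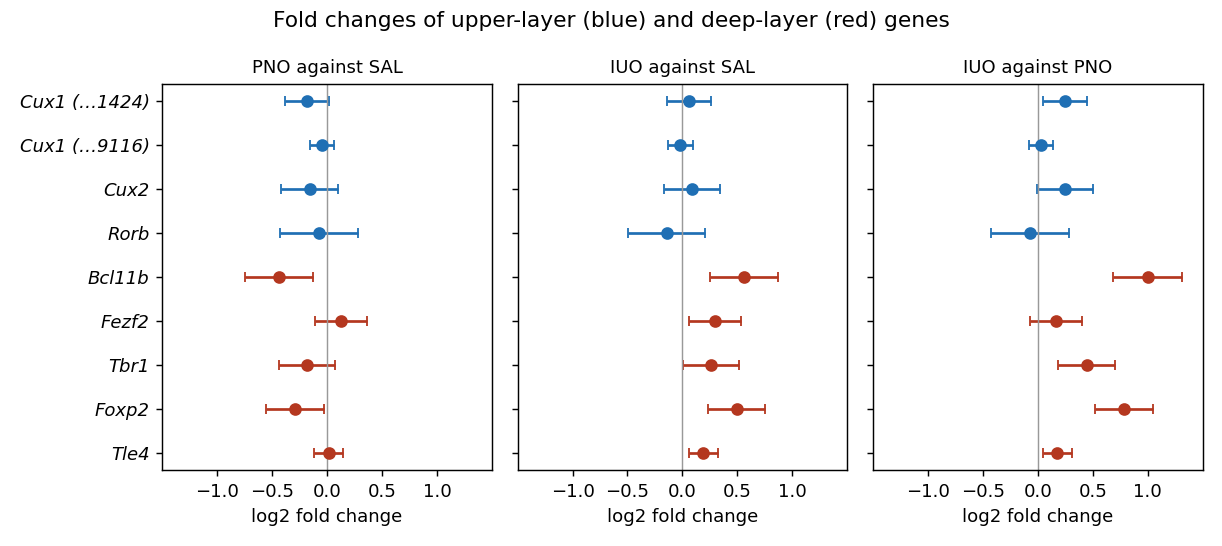
Log2 fold changes (points, horizontal axes) and standard errors (bars) of the 9 layer gene identifiers in the 3 comparisons, with upper-layer genes in blue and deep-layer genes in red. *Bcl11b* at 1.00 and *Foxp2* at 0.78 stand farthest from 0 between IUO and PNO, and the upper-layer genes lie between -0.19 and 0.25 throughout.

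The call for *Bcl11b* and *Foxp2* between IUO and PNO depended on the test. DESeq2 gave *Bcl11b* an adjusted p of 0.0451 and *Foxp2* one of 0.0768, and limma-voom with sample quality weights gave 0.0311 and 0.0485, while over the 13 alternative settings, these tests included, the adjusted p lay between 0.0311 and 1.0 for *Bcl11b* and between 0.0485 and 0.984 for *Foxp2*. These 2 tests also called more of all genes, 436 and 2028 against 10 with edgeR. Leaving out any 1 pup kept the log2 fold change of *Bcl11b* between 0.87 and 1.17 and that of *Foxp2* between 0.57 and 0.89.

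The level of striatal markers moved with these 2 genes. Between IUO and PNO all 10 striatal markers had log2 fold changes above 0, with a median of 0.84 and 0 of 10 at an unadjusted p under 0.05 with edgeR or DESeq2 (4 of 10 with limma-voom with sample quality weights, where *Pde10a* had an adjusted p of 0.0404, and 1 of 10 without weights, against 34% and 14.8% of all genes), and no marker was at 0 in any pup (*Drd1*, the dopamine receptor of direct-pathway neurons, was at 6.94 CPM or more). Over the 18 pups *Bcl11b* was correlated with the striatal score at Pearson's r = 0.834 (permutation p = 1e-05, the smallest that 100000 permutations can give, adjusted 0.00018 over 36 relations) and Spearman's rho = 0.827 (permutation p = 3e-05). The r was 0.733 within SAL, 0.971 within PNO and 0.910 within IUO, and 0.767 without the 2 pups farthest from the median score. SAL 6 departed from this line, with the lowest striatal score of all pups, 3.86, and 93.3 CPM of *Bcl11b*. *Foxp2* followed with r = 0.782 (permutation p = 9e-05, adjusted 0.00054) and rho = 0.787 (permutation p = 0.00018), at 0.906, 0.416 and 0.876 within SAL, PNO and IUO and 0.681 without the 2 farthest pups. *Tle4* had r = 0.644 (permutation p = 0.0036, adjusted 0.011) and rho = 0.583 (permutation p = 0.012), and 0.633 without those pups. *Cux2* and *Rorb* had r = -0.459 and -0.464 (adjusted permutation p = 0.13 for both), and *Tbr1* -0.105.

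With the striatal score as a covariate the log2 fold change of *Bcl11b* between IUO and PNO was 0.62 (standard error 0.20, unadjusted p = 0.00716) and that of *Foxp2* 0.42 (standard error 0.20, unadjusted p = 0.048). Without the 5 pups of high score they were 0.88 (unadjusted p = 0.00564) and 0.55 (unadjusted p = 0.0189). The 7 myelin genes ran the other way, all 7 lower in IUO than in PNO at an unadjusted p under 0.05 (9.14% of all genes were lower), and their median log2 fold change was -1.35. After adjustment edgeR and limma-voom without weights called 0 of the 7, DESeq2 6 and limma-voom with weights 7. Of all 15703 genes edgeR and limma-voom without weights each called 10, DESeq2 436 and limma-voom with weights 2028. With the myelin score alone as a covariate *Bcl11b* was at 1.18 and *Foxp2* at 1.15. With both scores, a setting chosen after the data were seen, *Bcl11b* was at -0.0056 (standard error 0.23, unadjusted p = 0.981) and *Foxp2* at 0.57 (standard error 0.27, unadjusted p = 0.0527). The value of *Bcl11b* between IUO and PNO was thus not kept in a model holding both scores, and that of *Foxp2* was lower by less than its standard error. Neither score contains a layer identity gene.

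Markers of other cells differed between IUO and PNO as well. *Pvalb*, which encodes the calcium-binding protein parvalbumin of fast-spiking interneurons, was at 2.601 to 5.93 CPM in IUO and 10.4 to 33.5 in PNO, groups that did not overlap, and differed by -2.34 on the log2 scale (adjusted p = 0.0356 in edgeR's test, standard error 0.41). It was the 1 gene called among 5 interneuron markers. All 6 choroid plexus markers had values below 0 (median -1.26), with 0 of 6 at an unadjusted p under 0.05 in edgeR, DESeq2 or limma-voom, and their sum reached 253.7 CPM in IUO and 971.3 in PNO. Both blood genes tested had values above 0 in IUO, at 1.26 for *Alas2*, the heme synthesis enzyme of red cells (unadjusted p = 0.0107), and 0.93 for *Hbb*, a beta-globin (unadjusted p = 0.0629), and against SAL they were at 1.31 (unadjusted p = 0.00832) and 0.99 (unadjusted p = 0.0494). The part of these cells in the levels of the layer identity genes was not tested.

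**Figure D3:**
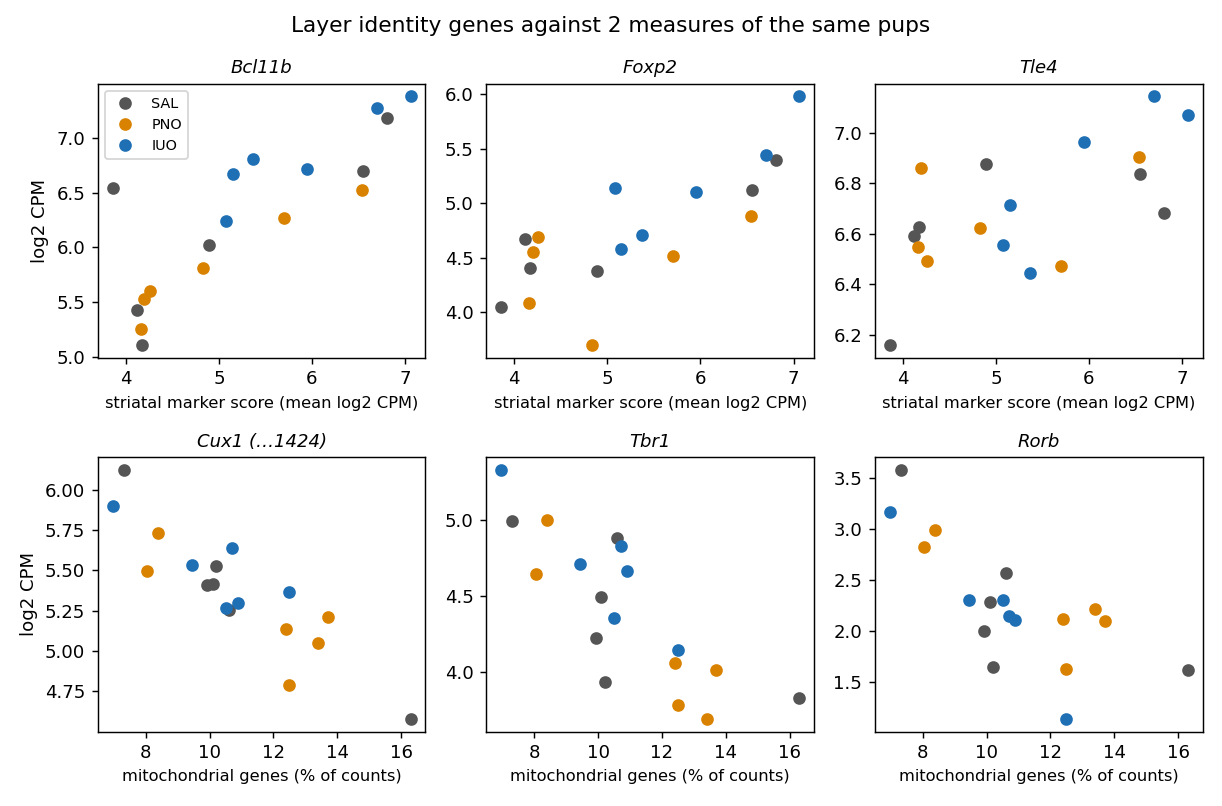
Log2 CPM of 6 layer gene identifiers (vertical axes) against the striatal marker score (upper row, mean log2 CPM of 10 markers) or the share of counts on mitochondrial genes (lower row, in percent), 1 point per pup coloured by group. *Bcl11b* rises along the striatal score (r = 0.834 over 18 pups) and the longer *Cux1* row falls along the mitochondrial share (r = -0.886).

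The weight of upper against deep layers was described by the mean log2 CPM of the 4 upper-layer identifiers minus that of the 5 deep-layer genes, with no test. It was -0.873 ± 0.394 (SD, n = 6) in SAL, -0.832 ± 0.254 in PNO and -1.258 ± 0.448 in IUO. The lowest pup was IUO 2 at -1.90 and the highest SAL 6 at -0.138, and the ranges of the 3 groups overlapped. Without *Bcl11b* and *Foxp2*, chosen after the data were seen, it was -0.849 in SAL, -0.929 in PNO and -1.11 in IUO, so that the difference between IUO and PNO shrank from -0.425 to -0.182. When each pup was left out in turn, IUO minus PNO ran from -0.544 to -0.297 and IUO minus SAL from -0.504 to -0.238. PNO minus SAL ran from -0.0263 to 0.188.

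Some of the genes varied together from pup to pup. Of the 36 pairs of identifiers, 8 had an adjusted permutation p under 0.05 for Pearson's r over the 18 pups. The share of such pairs over all genes was not computed, so that this count is not shown to be particular to these genes. *Tbr1* of layer 6 and *Cux2* of the upper layers had r = 0.827 (permutation p = 7e-05, adjusted 0.00096) and rho = 0.812 (permutation p = 0.00012), with 0.971, 0.710 and 0.927 within SAL, PNO and IUO and 0.814 without the 2 farthest pups. *Cux2* and *Rorb* had r = 0.826 (permutation p = 1e-05, adjusted 0.00036) and rho = 0.740 (permutation p = 0.00063), with 0.946, 0.541 and 0.934 within the groups and 0.735 without the 2 farthest pups. *Rorb* and *Tbr1* had r = 0.766 (permutation p = 0.00013, adjusted 0.0012) and rho = 0.769 (permutation p = 0.00036), and 0.815 without the 2 farthest pups. The longer *Cux1* row joined these 3 genes, with r = 0.787 to *Tbr1*, 0.696 to *Rorb* and 0.660 to *Cux2* (adjusted permutation p = 0.00096, 0.0097 and 0.016) and rho = 0.781, 0.6 and 0.598 (adjusted permutation p = 0.0043, 0.054 and 0.054).

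Outside these 4 identifiers, 2 pairs passed, *Bcl11b* and *Foxp2* with r = 0.693 (permutation p = 0.0014, adjusted 0.0097), rho = 0.692 (permutation p = 0.0021, adjusted 0.015) and 0.661 without the 2 farthest pups, and *Foxp2* and *Tle4* with r = 0.612 (permutation p = 0.0075, adjusted 0.034), rho = 0.498 (permutation p = 0.038, adjusted 0.17) and 0.582 without the 2 farthest pups. *Bcl11b* and *Tle4* had r = 0.382 (permutation p = 0.12, adjusted 0.3). *Fezf2* and *Bcl11b*, which act in the same layer 5 neurons, had r = -0.271 (permutation p = 0.28, adjusted 0.55). The 2 *Cux1* rows had r = 0.221 (permutation p = 0.37, adjusted 0.58). Of the 8 pairs, 5 thus lay within the upper or within the deep layers, and the 3 that crossed were those of *Tbr1*, of layer 6, with upper-layer genes. All points of a pair come from the same libraries and share their scaling.

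**Figure D4:**
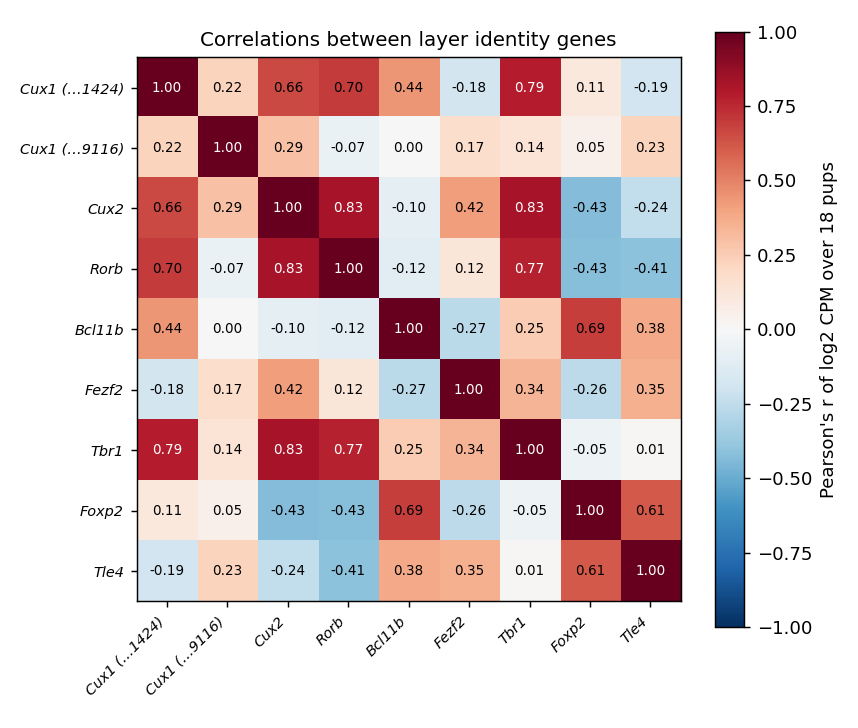
Pearson's r of log2 CPM over 18 pups for each pair of the 9 layer gene identifiers, coloured from blue (-1) to red (1) with the value in each cell. The longer *Cux1* row, *Cux2*, *Rorb* and *Tbr1* have r between 0.66 and 0.83 with each other, and *Bcl11b* has r = 0.693 with *Foxp2*.

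The myelin score, whose genes were lower in IUO than in PNO, was correlated with *Cux2*, *Tbr1* and the longer *Cux1* row below 0 over the 18 pups. *Cux2* had r = -0.688 with it (permutation p = 0.0016, adjusted 0.0063) and rho = -0.637 (permutation p = 0.0052), with -0.728, -0.856 and -0.856 within SAL, PNO and IUO and -0.639 without the 2 farthest pups. *Tbr1* had r = -0.673 (permutation p = 0.0027, adjusted 0.0089) and rho = -0.692 (permutation p = 0.0018), with -0.766, -0.397 and -0.646 within the groups and -0.793 without the 2 farthest pups. For the longer *Cux1* row it was r = -0.630 (permutation p = 0.0047, adjusted 0.013) and rho = -0.659 (permutation p = 0.0038), with -0.734, -0.318 and -0.731 within the groups and -0.664 without the 2 farthest pups. *Rorb* had r = -0.452 (permutation p = 0.06). The part of the myelin score in these levels was not tested beyond its use as a covariate, where *Rorb* had a log2 fold change of -0.81 between IUO and PNO (unadjusted p = 0.0367, adjusted p = 0.505 in edgeR's test).

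A further pair of measures of each library was set beside these genes after the data were seen. The 13 genes of the mitochondrial genome took 7.31% to 16.3% of the counts in SAL, 8.04% to 13.7% in PNO and 6.96% to 12.5% in IUO. The longer *Cux1* row had r = -0.886 with this share (permutation p = 1e-05, the smallest possible, adjusted 0.00018) and rho = -0.847 (permutation p = 2e-05), with -0.965, -0.805 and -0.790 within SAL, PNO and IUO and -0.803 without the 2 farthest pups. *Tbr1* had r = -0.808 (permutation p = 7e-05, adjusted 0.0005) and rho = -0.750 (permutation p = 0.00049), *Rorb* r = -0.748 (permutation p = 0.00046, adjusted 0.0021) and rho = -0.752 (permutation p = 0.00054), and *Cux2* r = -0.665 (permutation p = 0.0027, adjusted 0.0089) and rho = -0.618 (permutation p = 0.0072). Without the 2 farthest pups these were -0.765, -0.706 and -0.560. The same 4 identifiers are thus low in pups with a high mitochondrial share, while *Foxp2*, *Fezf2* and *Tle4* had r between -0.0161 and 0.123 and *Bcl11b* had r = -0.385 (permutation p = 0.12). The shorter *Cux1* row had r = 0.0116. Within SAL, PNO and IUO *Foxp2* had r = -0.0117, -0.238 and 0.80, *Fezf2* 0.276, 0.0317 and -0.609, and *Bcl11b* -0.651, -0.273 and 0.513.

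For the other measure, each gene's mean log2 CPM over all pups was first subtracted from its log2 CPM in each pup. The measure was the median of these values over 2676 genes with transcripts over 4000 bases minus that over 4362 genes under 1500 bases. It ran from -0.221 to 0.501 in SAL, from -0.357 to 0.264 in PNO and from -0.0577 to 0.244 in IUO. The longer *Cux1* row had r = 0.861 with it (permutation p = 2e-05, adjusted 0.00024) and rho = 0.872 (permutation p = 1e-05), *Tbr1* r = 0.794 (permutation p = 6e-05, adjusted 0.0005), *Rorb* r = 0.780 (permutation p = 0.00017, adjusted 0.00087) and *Cux2* r = 0.611 (permutation p = 0.0068, adjusted 0.017). Without the 2 farthest pups they were 0.760, 0.782, 0.642 and 0.535. The transcripts of *Rorb* (2325 bases) and *Tbr1* (2043 bases) belong to neither of the 2 length classes. *Bcl11b*, at 5236 bases, had r = 0.282 and *Foxp2*, at 6754 bases, -0.0302, while the shorter *Cux1* row had r = -0.164. Within SAL, PNO and IUO *Foxp2* was at -0.511, 0.379 and -0.816. The part of either measure in the levels of these genes was not tested.

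For each identifier the 2 genes most alike were taken from the 15702 other genes tested, by Pearson's r of log2 CPM over the 18 pups and as a description. *Bcl11b* was most like *Gng7* (0.955) and *Gnal* (0.946), which encode G protein subunits known from striatal neurons. *Tbr1* was most like *Nln* (0.980) and *Arhgef7* (0.955), *Cux2* like *Hivep3* (0.964) and *Dctn1* (0.960), and *Rorb* like *Clstn2* (0.957) and *Arhgap35* (0.945). The longer *Cux1* row was most like *Ccser1* (0.958) and *Smarcc1* (0.938), and the shorter one like *March9* (0.789) and *Rps4x* (0.783). *Fezf2* was most like *Cnrip1* (0.896) and *Grp* (0.886), *Foxp2* like *Slc35d3* (0.874) and *Rem2* (0.869), and *Tle4* like *Tgm3* (0.849) and *Actr3* (0.832).

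Genes that are known to mark the same layers were listed beside the members, and with edgeR's quasi-likelihood test 0 of them passed the adjusted threshold in any of the 3 comparisons. Between IUO and PNO, DESeq2 called 1 after adjustment (*Moxd1*), where it called 436 of all 15703 genes. Limma-voom with sample quality weights called 2 of 17 upper-layer, 3 of 10 layer 5 and 5 of 12 layer 6 companions, and 2028 of all 15703 genes. Of 17 upper-layer companions, 1 was higher and 1 lower in IUO than in PNO at an unadjusted p under 0.05 (6.14% and 9.14% of all genes), with a median log2 fold change of 0.26 and a range from -0.93 to 1.27. *Inhba*, which encodes an activin subunit, had a level of 1.66 to 4.06 CPM in IUO (median 2.29), 0.261 to 1.94 in PNO (median 1.13) and 0.452 to 7.21 in SAL (median 2.77). Its log2 fold change was 1.27 between IUO and PNO (standard error 0.53, unadjusted p = 0.0282) and -1.40 between PNO and SAL (unadjusted p = 0.017), on few counts. *Lhx2*, a LIM-homeodomain factor, was at 25.4 to 36.4 CPM in IUO and 30.9 to 54.6 in PNO, with a log2 fold change of -0.55 (standard error 0.19, unadjusted p = 0.011).

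Of 10 layer 5 companions, 3 were higher and 1 lower in IUO than in PNO at an unadjusted p under 0.05, where 6.14% of all genes were higher and 9.14% lower. *Sulf2*, a heparan sulfate endosulfatase, was at 241.9 to 336.6 CPM in IUO and 190.3 to 238.3 in PNO, and these groups did not overlap, as in 1.66% of all genes (log2 fold change 0.41, standard error 0.13, unadjusted p = 0.00555). *Tcerg1l* was at 18.2 to 26.9 CPM in IUO and 12.4 to 19.5 in PNO (0.60, unadjusted p = 0.0186), and at -0.50 between PNO and SAL (unadjusted p = 0.0444). *Ldb2*, which encodes a cofactor of LIM-homeodomain proteins, was at 77.4 to 106.3 CPM in IUO, 64.3 to 87.6 in PNO and 50.2 to 90.6 in SAL, with log2 fold changes of 0.30 against PNO (unadjusted p = 0.025) and 0.46 against SAL (unadjusted p = 0.00159, adjusted p = 0.366 in edgeR's test). *Parm1* went the other way, with -0.46 between IUO and PNO (unadjusted p = 0.00819) and 0.41 between PNO and SAL (unadjusted p = 0.0159). The 10 genes had a median log2 fold change of 0.21 between IUO and PNO, where all genes tested had one of -0.00053.

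Of 12 companions from layer 6 and the subplate, the transient layer beneath it, 1 was higher and 3 were lower in IUO than in PNO at an unadjusted p under 0.05 (6.14% and 9.14% of all genes), with a median log2 fold change of 0.03. *Syt6*, a synaptotagmin, was at 40.6 to 83.2 CPM in IUO and 19.1 to 62.9 in PNO (0.72, standard error 0.29, unadjusted p = 0.0206). The 3 lower genes were *Nr4a2*, an orphan nuclear receptor (-1.25, unadjusted p = 0.034), *Nxph4*, a neurexophilin (-0.97, unadjusted p = 0.0238), and *Moxd1*, a monooxygenase-like gene (-0.83, unadjusted p = 0.00106). *Moxd1* was at 4.73 to 6.54 CPM in IUO and 4.50 to 13.7 in PNO, and also had a log2 fold change of 0.73 between PNO and SAL (unadjusted p = 0.00311). *Nxph4* was at 5.20 to 9.12 CPM in IUO, 8.23 to 29.1 in PNO and 5.56 to 30.2 in SAL, and had -0.89 between IUO and SAL (unadjusted p = 0.0352). Of all 12 companions, 6 had fold changes above 0 between IUO and PNO, as the deep-layer members did, and 6 had fold changes below 0.

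**Figure D5:**
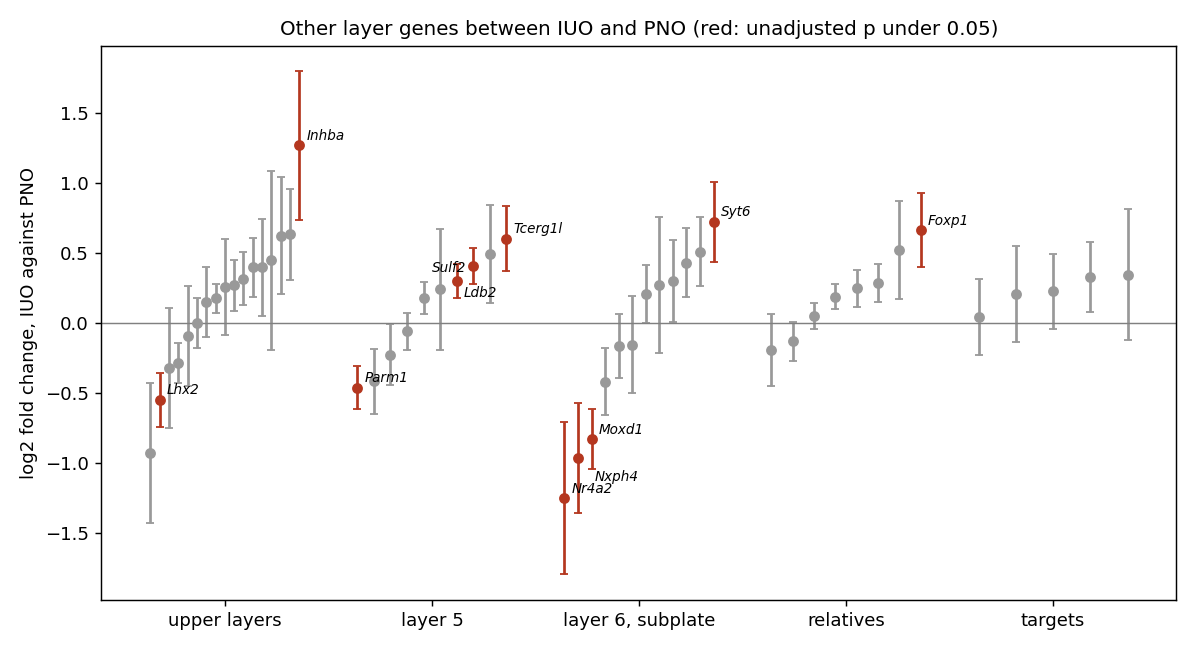
Log2 fold changes between IUO and PNO (vertical axis, with standard errors) of other upper-layer, layer 5 and layer 6 or subplate genes, of relatives of the layer identity genes and of known targets of *Tbr1* and *Foxp2*, sorted within each list. Genes at an unadjusted p under 0.05 are red and named, from *Nr4a2* at -1.25 to *Inhba* at 1.27, and none passed the adjusted threshold of edgeR's test.

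Of 10 relatives of the layer identity genes, 8 were tested and the other two were too low to be. *Foxp1*, a forkhead protein that pairs with *Foxp2* and is strong in the striatum too, was at 23.3 to 36.5 CPM in IUO, 10.6 to 27.8 in PNO and 9.48 to 28.9 in SAL, with a log2 fold change of 0.66 between IUO and PNO (standard error 0.27, unadjusted p = 0.0232). It was the only relative at an unadjusted p under 0.05 in that comparison with edgeR (15.3% of all genes), where DESeq2 had 2 (16.4%) and limma-voom 2 without weights (14.8%) and 4 with sample quality weights (34%), the last with an adjusted p of 0.0244 for *Foxp1*. *Foxp4*, the third brain member of this family, had 0.21 between IUO and SAL (standard error 0.09, unadjusted p = 0.031). Of 5 genes known as targets of *Tbr1* or *Foxp2* (*Auts2*, *Grin2b*, *Reln*, *Cntnap2*, *Srpx2*), 0 passed an unadjusted p of 0.05 in any comparison with edgeR or DESeq2 (limma-voom with sample quality weights called 3 when IUO was set against PNO and 1 when it was set against SAL, where 34% and 17.3% of all genes passed), and all 5 had log2 fold changes above 0 between IUO and PNO, from 0.04 to 0.34 with a median of 0.23.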

How the data were processed

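For every pup the authors deposited a table of expected counts by gene, not normalized, where a read that fits more than 1 gene is divided by estimation, beside TPM and FPKM values scaled to gene length and library. The TPM values that the authors deposited were used for levels between genes, and the deposited FPKM values were not used. Not given in the sources used here are the aligner, the quantifier, the build, the annotation and the authors' differential expression test. Libraries were made with the TruSeq V2 kit and sequenced on a single flow cell, so that no sequencing batch separates the groups. Groups and replicate numbers were taken from the sample titles.

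After rounding of the expected counts, edgeR 4.0.16 (R 4.3.3) was run on all 18 pups in a model with the 3 groups and 15 residual degrees of freedom, using filterByExpr, TMM factors and the two-sided quasi-likelihood test (glmQLFTest), and p-values were adjusted by Benjamini-Hochberg over 15703 genes. Log2 CPM used a prior count of 2. Counting precision followed from 18381819 to 26084780 counts per pup. The alternatives were other or no size factors, DESeq2 1.42.0, limma-voom (limma 3.58.1), other filters, a replicate block, marker scores as covariates, fewer pups and each pup left out in turn. The fits of edgeR, DESeq2 and limma-voom with groups only were also run on simulated counts, and the other steps were not. Correlations over the 18 pups used 100000 permutations, two-sided, adjusted within a family of 36. Python 3.11.15 served for tables (scipy 1.17.1, pandas 2.3.3, numpy 2.4.6) and plots (matplotlib 3.10.9).

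The members and all lists were chosen with earlier results of these data known. The genes named are all members, every listed companion, relative or target with an unadjusted p under 0.05 in a comparison, the 2 genes most alike to each member, and marker genes whose level is given. *Slc17a7*, *Drd1*, *Pde10a*, *Pvalb*, *Alas2*, *Hbb* and the 5 targets were named after their values were seen. *Rasgrf2* was not analysed here, and some listed genes are not reported here.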

Additional observations from a re-analysis of the deposited data

How the results depend on the processing

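Most results kept their direction and their side of the threshold. Of the counts over the layer identity genes, that between PNO and SAL stayed at 0 under every alternative run. Between IUO and PNO, 1 identifier passed the adjusted threshold with DESeq2 and 2 with limma-voom with sample quality weights, and at the unadjusted threshold 4 passed with these weights, 3 with the striatal score (*Tbr1* too, at 0.58), 3 with the myelin score (*Rorb* lower, at -0.81) and 0 with both marker scores (34%, 17.1%, 9.13% and 4.62% of all genes), against 2 (15.3%), with 2 to 3 when each pup was left out in turn. Between IUO and SAL the unadjusted count of 0 (6.88% of all genes) became 1 with limma-voom with weights (17.3%) or without (6.78%). It was also 1 with the replicate block (7.44%) or the myelin score (7.39%). Without the pups of high striatal score the count was 2 (7.35%), and it was 0 to 2 when each pup was left out (5.14% to 8.77%). The cause was not tested.

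Several log2 fold changes turned their sign, and none of the turned values passed a threshold. Of the values that turned, that of *Bcl11b* between IUO and PNO (1.00) had passed the unadjusted one. With the myelin score as a covariate PNO against SAL became 0.0499 for *Cux1* (the longer row), 0.18 for *Cux2*, 0.45 for *Rorb*, 0.0955 for *Tbr1* and -0.0454 for *Tle4*. IUO against SAL became -0.0711 for *Cux1* and -0.19 for *Cux2*, and IUO against PNO -0.12 and -0.0478 for the 2 *Cux1* rows, -0.37 for *Cux2*, -0.0082 for *Fezf2* and -0.0144 for *Tbr1*. With both scores PNO against SAL became 0.11 and 0.0019 for the *Cux1* rows, 0.12 for *Cux2*, 0.39 for *Rorb* and 0.0904 for *Tbr1*. With them IUO against SAL became -0.18 for *Cux1*, -0.0512 for *Cux2* and -0.0174 for *Bcl11b*, and IUO against PNO -0.29 and -0.0762 for the *Cux1* rows, -0.17 for *Cux2* and -0.0056 for *Bcl11b*. The striatal score alone moved *Rorb* to 0.14 against SAL and 0.16 against PNO in IUO. Sample quality weights moved *Rorb* to 0.0721, 0.12 and 0.0442 in the 3 comparisons, *Tle4* to -0.0622 between PNO and SAL and the shorter *Cux1* row to -0.0758 between IUO and PNO. Limma-voom without weights moved *Rorb* to 0.0242 and no size normalization *Tle4* to -0.0303 between PNO and SAL. Without the pups of high striatal score *Fezf2* was at -0.0802 (PNO against SAL), the shorter *Cux1* row at 0.0039 (IUO against SAL) and *Rorb* at 0.10 (IUO against PNO).

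Leaving out each pup in turn, PNO against SAL ran from -0.12 to 0.0342 for the shorter *Cux1* row, -0.23 to 0.32 for *Rorb*, -0.0159 to 0.33 for *Fezf2* and -0.0721 to 0.0643 for *Tle4*. IUO against SAL ran from -0.0619 to 0.24 and -0.0487 to 0.0138 for the *Cux1* rows, -0.13 to 0.24 for *Cux2* and -0.41 to 0.24 for *Rorb*. IUO against PNO ran from -0.0589 to 0.10 for the shorter *Cux1* row and -0.34 to 0.0769 for *Rorb*. *Rorb* turned positive against SAL in both comparisons without SAL 6. Over all genes the 10 calls between IUO and PNO ran from 1 to 95 (without PNO 5) in these fits, and became 436 with DESeq2, 2028 with weights, 72 with the 12 pups compared, 26 and 19 with the striatal score and without size normalization, 6 with the block and 0 with the myelin score, with both scores or without the pups of high striatal score.

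The titles do not say whether equal replicate numbers pair pups, and a cut on correlation set at 0.1 cannot settle it. Same-numbered pups deviated together with a correlation over 0.1 in 4 of 6 pairs between PNO and SAL (mean 0.232). Between IUO and SAL it was 1 of 6 (mean -0.0265), and between IUO and PNO 3 of 6 (mean 0.0626). With the replicate block *Bcl11b* was at 1.06 and *Foxp2* at 0.76 between IUO and PNO, and the block changed no other count of layer identity genes than the one named above. Every balance given is without *Rasgrf2*, which was not analysed here. *Rorb*, at 43 to 287 counts, is the member that depth limits most.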
